A study of Mus musculus with 8 samples.

Results

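The subject here is a set of 7 killer cell lectin-like receptor genes (Klrk1, Klrc1, Klrc2, Klrd1, Klrg1, Klre1 and Klra5), named by symbol and found as 7 of the 13341 genes in the deposited table. They were followed in T cells of MRL/lpr mice aged 14 weeks, in which the Fas gene is disrupted by the lpr mutation and which develop a lupus-like disease with nephritis. Cells with high surface CD44, a mark of antigen experience, were sorted as CD4+ or as CD8+ cells from kidney or from spleen, which gave 4 groups of 2 libraries: kidney CD4+, kidney CD8+, spleen CD4+ and spleen CD8+. All 4 groups carry the lpr mutation, and no group of healthy mice was analysed here. The labels do not say whether the 2 libraries of a group came from separate or pooled mice, so p-values measure the spread between these libraries, which may be technical.

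Killer cell lectin-like receptors are surface proteins of natural killer cells that activated and memory T cells, above all CD8+ T cells, also make. Klrk1 encodes NKG2D, an activating receptor for stress-induced relatives of class I molecules, which signals through the adaptors DAP10 (Hcst) and DAP12 (Tyrobp). Klrd1 encodes CD94, which pairs with NKG2A (Klrc1) into an inhibitory receptor or with NKG2C (Klrc2) into an activating one, both for the class I-like molecule Qa-1 (H2-T23). Klrg1 is an inhibitory receptor for cadherins, Klre1 lacks a signalling motif of its own and works with partner chains, and Klra5 encodes Ly49E, an inhibitory receptor of the Ly49 family.

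Summed over the genes of the deposited table, the libraries held 7477544 to 11169003 recovered reads, which is not their sequencing depth. The level used throughout is the deposited value, in which 1 read was worth 0.554 to 1.04 depending on the library. The sorted lineage genes Cd4 and Cd8a followed the labels. The kidney CD4+ pair stood apart, with a Pearson r of 0.772 between its replicates over all genes tested, against 0.883 to 0.958 for the other 3 pairs. Summed proximal tubule markers (10 of 10 in the table) were at 4421 to 14530 in the kidney libraries and at 0 to 4.31 in the spleen libraries, while neutrophil markers (8 of 8) were at 3569 to 9099 in spleen and 0 to 29.6 in kidney. Macrophage and dendritic markers (10 of 11 in the table) were at 13421 to 14980 in kidney CD4+, 2704 to 4213 in kidney CD8+, 2258 to 2637 in spleen CD4+ and 1545 to 1844 in spleen CD8+ libraries. Their part in the results was not tested. In such bulk samples, fewer cells that make a receptor and less RNA per cell cannot be told apart.

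In mm9 all 7 genes lay on chromosome 6, and 6 of them within the natural killer gene complex. Klre1 (129527911 to 129535842, plus strand), Klrd1 (129541800 to 129548793, plus), Klrk1 (129560341 to 129573882, minus), Klrc2 (129597514 to 129610707, minus) and Klrc1 (129616033 to 129628991, minus) shared 101.081 kb. Klra5 (129849014 to 129867668, minus) lay 220022 bases beyond Klrc1, and Klrg1 (122220614 to 122232900, minus) lay 7295010 bases before Klre1. No other annotated gene overlapped any of the 7. The 3 NKG2 genes Klrc1, Klrc2 and Klrc3 are close copies, so reads of their shared 3' part may be split among them. The last 120 coding bases are shown because a read within them meets at most 3 positions that separate the copies, with capitals where the 3 genes differ (5′ to 3′, mm9 transcripts Klrc1-002, Klrc2-202 and Klrc3-201).

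Klrc1 last 120: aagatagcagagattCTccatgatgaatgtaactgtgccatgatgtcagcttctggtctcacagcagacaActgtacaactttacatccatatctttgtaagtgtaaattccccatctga
Klrc2 last 120: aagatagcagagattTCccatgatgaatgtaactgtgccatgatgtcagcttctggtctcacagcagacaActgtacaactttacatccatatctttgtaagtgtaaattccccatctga
Klrc3 last 120: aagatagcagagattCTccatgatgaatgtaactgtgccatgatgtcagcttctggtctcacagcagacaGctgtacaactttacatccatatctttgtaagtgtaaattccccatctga

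Klrc1 matched Klrc2 at 118 and Klrc3 at 119 of these 120 bases. The first 120 coding bases are shown with capitals where any of the 3 genes differ at the same position, no gaps allowed.

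Klrc1 first 120: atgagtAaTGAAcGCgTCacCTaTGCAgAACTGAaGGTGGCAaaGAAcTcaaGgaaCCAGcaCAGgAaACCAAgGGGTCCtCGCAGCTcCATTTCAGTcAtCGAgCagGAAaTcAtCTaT
Klrc2 first 120: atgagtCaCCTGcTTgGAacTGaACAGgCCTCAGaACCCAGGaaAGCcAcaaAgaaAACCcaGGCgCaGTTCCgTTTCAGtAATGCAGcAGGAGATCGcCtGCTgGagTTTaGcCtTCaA

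Position by position, without gaps, Klrc1 and Klrc2 matched at 39 of 120 bases, while Klrc2 and Klrc3 matched at 119. Like stretches of Klrc1 and Klrc2 that lie at shifted positions count as differences here. The 39 and the capitals therefore do not measure how alike these 2 ends are. Over the aligned bases of the coding sequences, gaps left out, Klrc2 was 96.4% identical to Klrc3 and 85.2% to Klrc1. Of all 50-base windows of their transcripts, 38.6% for Klrc1 and 30.8% for Klrc2 also occurred in another of the 3 NKG2 genes. The share was 1.93% for Klra5 and 0% for Klrk1, Klrd1, Klrg1 and Klre1. By coding sequence the nearest relative of Klra5 was Klra6 (91.9% of aligned bases). The values of Klrc1, Klrc2 and Klra5 are uncertain to the extent that reads were assigned among such copies. The Ly49 family also differs in gene content between mouse strains, and mm9 is the genome of another strain. What this does to the level of Klra5 was not tested.

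**Figure D1:**
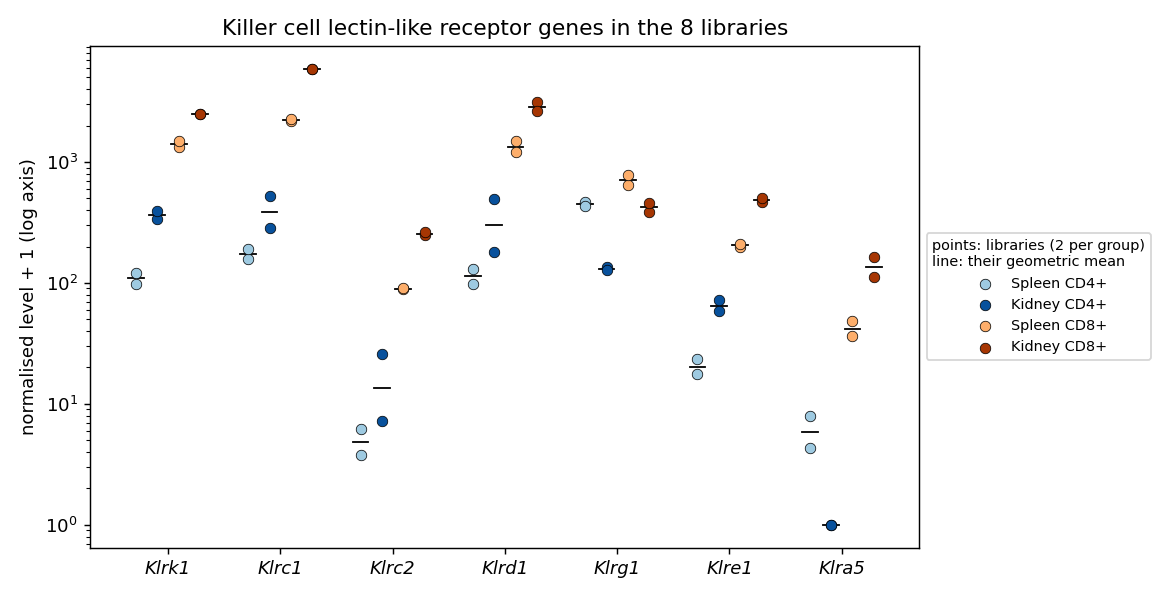
Normalised level plus 1 (log axis) of each receptor gene in the 8 libraries, coloured by group, with a line at the geometric mean of the 2 libraries of a group. Klrk1, Klrc1, Klrc2, Klrd1 and Klre1 share 1 order of the groups from spleen CD4+ up to kidney CD8+, whereas Klrg1 is lowest in kidney CD4+ cells and Klra5 has 0 reads there.

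Klrc1 encodes the inhibitory NKG2A chain. Its level was 5903 and 5835 in kidney CD8+, 2201 and 2276 in spleen CD8+, 526 and 284 in kidney CD4+ and 157 and 189.8 in spleen CD4+ replicates 1 and 2. No 2 groups overlapped. Klrd1, the common CD94 partner, read 3129 and 2616, then 1495 and 1198, then 178 and 496, then 130.2 and 96.6 in the same order of groups. The order was that of Klrc1, but the kidney CD4+ replicates disagreed in opposite ways: Klrc1 was 1.85-fold higher in replicate 1 and Klrd1 2.78-fold higher in replicate 2. Klrc2, the activating NKG2C chain, was at 246 and 261 in kidney CD8+, 87.5 and 89.8 in spleen CD8+, 24.7 and 6.24 in kidney CD4+ and 2.77 and 5.18 in spleen CD4+ cells. The CD4+ values of Klrc2 rest on 35 and 6 reads in kidney and 5 and 6 reads in spleen.

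Klrk1, the NKG2D gene, had levels of 2499.7 and 2508 in kidney CD8+, 1337 and 1484 in spleen CD8+, 335 and 391 in kidney CD4+ and 96.4 and 121 in spleen CD4+ cells. Its replicates differed by at most 1.25-fold in every group, the unlike kidney CD4+ pair included. Klre1 had the same order of groups, with 470.2 and 505, 199 and 209, 57.1 and 71.8, and 16.6 and 22.4. Neither gene overlapped between any 2 groups.

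Klrg1 and Klra5 had other orders. Klrg1 read 648 and 781 in spleen CD8+, 466 and 428 in spleen CD4+, 389 and 458 in kidney CD8+ and 135 and 126 in kidney CD4+ cells. Spleen CD4+ and kidney CD8+ values of Klrg1 overlapped, and kidney CD4+ libraries lay below all 6 others. Klra5 read 163 and 111 in kidney CD8+, 47.1 and 35.3 in spleen CD8+ and 3.33 and 6.90 in spleen CD4+ cells, from 6 and 8 reads in the last. In kidney CD4+ cells Klra5 had 0 reads in both libraries, which allows a mean level of up to 1.26 (3 reads over the 2 libraries; counting error only, since amplified reads without molecular identifiers are not independent molecules).

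Klrg1 took 53.4% and 49.2% of the reads of the 7 genes in spleen CD4+ libraries, 9.15% to 12.9% in kidney CD4+ and spleen CD8+ libraries, and 3.04% and 3.72% in kidney CD8+ libraries. Klrc1 took 46.1% and 47.5% in kidney CD8+ and 18.0% and 21.8% in spleen CD4+ libraries. The summed level of the 7 genes was 12800 and 12293 in kidney CD8+, 6014 and 6073 in spleen CD8+, 1257 and 1376 in kidney CD4+ and 872 and 869.6 in spleen CD4+ cells.

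Levels of different genes can be set side by side only per kb of transcript. Per kb of merged exons, Klrc1 (2958 ± 24.5, SD, n = 2) and Klrd1 (2242 ± 283) led in kidney CD8+ cells, followed by Klrk1 at 580 ± 1.30, Klre1 at 374 ± 18.8, Klrg1 at 299 ± 34.6, Klra5 at 106 ± 28.5 and Klrc2 at 43.7 ± 1.85. In spleen CD4+ cells Klrg1 led at 316 ± 18.8, and Klrd1 (88.5 ± 18.6) and Klrc1 (87.5 ± 11.5) followed without differing beyond their spread. Klrk1 was at 25.2 ± 3.99 there, Klre1 at 15.0 ± 3.15, Klra5 at 3.96 ± 1.96 and Klrc2 at 0.684 ± 0.293. The divisor matters: with the length of the transcript that holds the longest coding part in its place, Klrk1 was at 1971, Klrd1 at 3125 (above Klrc1 at 2958) and Klrc2 at 216 (above Klra5 at 119) per kb in kidney CD8+ cells.

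CD8+ cells of the spleen had higher levels than CD4+ cells for all 7 genes, with no overlap between libraries, and 4 of the 7 passed the test. Klrk1 was 12.99-fold higher (log2 fold change 3.69 ± 0.33 SE, adjusted p = 0.00321), Klrc1 12.9-fold (3.69 ± 0.38, adjusted p = 0.00734), Klre1 10.4-fold (3.33 ± 0.43, adjusted p = 0.0209) and Klrd1 11.9-fold (3.56 ± 0.49, adjusted p = 0.0297), by limma over 10845 genes. Klrc2 had a ratio of 22.3 (4.22 ± 0.74, adjusted p = 0.0607), Klra5 of 8.06 (2.84 ± 0.78, adjusted p = 0.289) and Klrg1 of 1.60 (0.67 ± 0.34, adjusted p = 0.889), and none of these passed. Of all genes tested 0.129% were called higher, and in 19.8% the spleen CD8+ libraries lay above the CD4+ ones without overlap. The median log2 fold change of the 7 genes was 3.56, against -0.05 over all genes tested. Klrc2 and Klra5 reached the minimum level of 10 in only 5 and 4 libraries, which include all 4 CD8+ ones, so they entered the test through the cells where they were high. The other 5 genes reached it in all 8 libraries. The count of 4 became 5 with edgeR (0.166% of all genes higher) and 6 with DESeq2 (0.649%), 5 without the kidney CD4+ group (1.2%), 1 and 2 without kidney CD8+ replicate 1 or 2 (0.0277% and 0.0461%), and 0 without any 1 of the 4 spleen libraries (0.00922% each).

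In kidney, CD8+ cells likewise lay above CD4+ cells for all 7 genes without overlap, and 3 passed the test. Klrc1 was 14.5-fold higher (log2 fold change 3.92 ± 0.38 SE, limma adjusted p = 0.00754) and Klrk1 6.89-fold (2.79 ± 0.33, adjusted p = 0.0145). Klra5 was at least 109-fold higher, a bound against 3 reads over both kidney CD4+ libraries (adjusted p = 0.0115). It had entered the test through the CD8+ libraries alone. With all Ly49 genes of the table summed, kidney CD8+ libraries read 692 and 407 and kidney CD4+ libraries 117 and 52.0, a log2 fold change of 2.75 ± 0.60 that did not pass (limma adjusted p = 0.178). Klra2 gave 166 and 30 reads to the kidney CD4+ sums, and Klra5 gave 0. Of the 5 genes at a level of 10 or more in all 8 libraries, Klrc1 and Klrk1 were called. The ratio was 7.57 for Klre1 (2.91 ± 0.43, adjusted p = 0.05002, just above the threshold), 8.51 for Klrd1 (3.26 ± 0.49, adjusted p = 0.0549), 16.4 for Klrc2 (4.22 ± 0.74, adjusted p = 0.0879) and 3.25 for Klrg1 (1.69 ± 0.34, adjusted p = 0.130). Of all genes tested 0.12% were called higher, and 13.8% had kidney CD8+ libraries above the CD4+ ones without overlap. The median was 3.26 for the 7 genes and 0.03 for all. The count of 3 was 4 with edgeR (0.129% of all genes higher) and 7 with DESeq2 (0.811%). It was 6 with a pseudocount of 10 (0.231%), 5 when scaled to the total (0.148%), 1 with library weights (0.0645%) and 0 with the 4 kidney libraries alone (0%). It was 1 without spleen CD8+ replicate 2 (0.0184%) and 0 without any 1 of kidney CD8+ replicates 1 and 2, spleen CD4+ replicates 1 and 2 and spleen CD8+ replicate 1 (0.00922% each). Without kidney CD4+ replicate 1 or replicate 2 it was 7, but 9.1% and 6.33% of all genes were then called higher. Such a fit leaves 1 kidney CD4+ library, which is assumed to vary like the other groups.

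**Figure D2:**
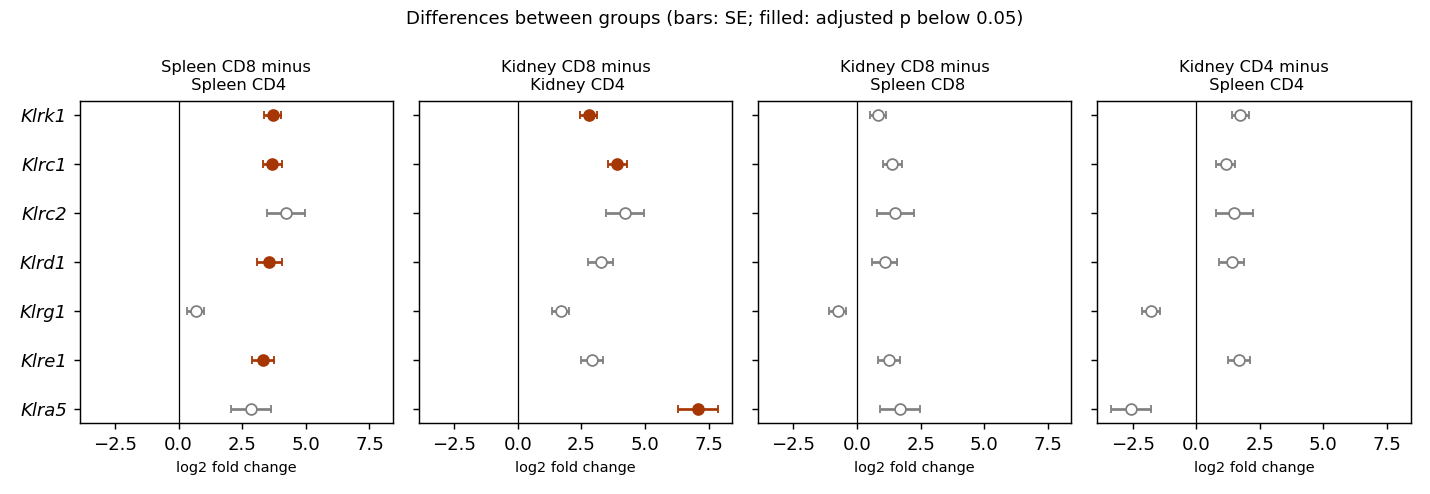
Log2 fold change (x axis) of each receptor gene in the 4 comparisons, with the standard error as bars and filled points where the limma adjusted p was below 0.05. All 7 points lie above 0 between CD8+ and CD4+ cells in both organs, and no point is filled in either organ comparison.

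Between organs, 6 of the 7 genes read higher in kidney CD8+ than in spleen CD8+ cells without overlap, and Klrg1 read lower, but 0 of 7 passed the test. Klrc1 had a ratio of 2.62 (log2 fold change 1.39 ± 0.38 SE, interval 0.53 to 2.25, limma adjusted p = 0.158), Klre1 of 2.39 (1.25 ± 0.43, adjusted p = 0.298), Klrk1 of 1.78 (0.83 ± 0.33, adjusted p = 0.399) and Klrd1 of 2.13 (1.10 ± 0.49, adjusted p = 0.487). Klra5 had a ratio of 3.32 (1.70 ± 0.78, adjusted p = 0.502), Klrc2 of 2.86 (1.51 ± 0.74, adjusted p = 0.532), and Klrg1 a log2 fold change of -0.75 ± 0.34 (adjusted p = 0.486). At an unadjusted p below 0.05 there were 3 of 7, all higher, against 10.6% of all genes tested. Over all genes 1.21% were called higher and 0.341% lower, and 26.7% and 24.4% did not overlap with kidney above or below. The median was 1.25 for the 7 genes and 0 for all.

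The standard error of this CD8+ comparison is shared by the 4 groups and so takes in the unlike kidney CD4+ pair. Without the kidney CD4+ group 3 of 7 genes were called higher in kidney CD8+ cells: Klrc1 (log2 fold change 1.39 ± 0.16 SE, adjusted p = 0.00225), Klrd1 (1.10 ± 0.22, adjusted p = 0.0221) and Klrk1 (0.83 ± 0.19, adjusted p = 0.0342). The fold changes stay the same by construction. In that fit 4.4% of all genes were called higher and 2.47% lower, so the calls of the whole table rose with those of the set. The same 3 genes were called when kidney CD4+ replicate 1 or replicate 2 alone was left out, with 6.8% and 6.68% of all genes called in either direction. Klrc1 alone was called by DESeq2 (4.48% of all genes in either direction), with library weights (5.32%) and with the compared libraries alone (1.65%), and 0 of 7 by edgeR (0.913%).

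In CD4+ cells, 5 of the 7 genes read higher in kidney than in spleen without overlap, and Klrg1 and Klra5 read lower, while 0 of 7 passed the test. Klrk1 had a ratio of 3.35 (log2 fold change 1.74 ± 0.33 SE, interval 0.99 to 2.48, limma adjusted p = 0.0561). Klrg1 was at a mean of 130.3 in kidney and 447 in spleen, a log2 fold change of -1.77 ± 0.34 (interval -2.54 to -0.997, adjusted p = 0.0583). Both miss the threshold narrowly. The ratio was 3.30 for Klre1 (1.68 ± 0.43, adjusted p = 0.162), 2.33 for Klrc1 (1.16 ± 0.38, adjusted p = 0.308), 2.97 for Klrd1 (1.40 ± 0.49, adjusted p = 0.377) and 3.89 for Klrc2 (1.498 ± 0.74, adjusted p = 0.615). Klra5, with 14 reads in spleen CD4+ cells and 0 in kidney, was at least 4.06-fold lower as a ratio of levels (adjusted p = 0.269). Its direction turned with the Ly49 genes summed (1.45 ± 0.60, limma adjusted p = 0.508). The sums were 117 and 52.0 in kidney and 17.7 and 44.0 in spleen CD4+ cells. In kidney most of those reads were of Klra2 (166 and 30), which shared no 50-base window with Klra5. At an unadjusted p below 0.05 there were 6 of 7, 4 higher and 2 lower, against 9.11% of all genes. Over all genes 0.802% were called higher and 0.157% lower, and 16.3% and 15.6% did not overlap with kidney above or below. The median was 1.40 for the 7 genes and -0.08 for all. DESeq2 called 4 (Klrc1, Klre1 and Klrk1 higher, Klrg1 lower; 3.25% of all genes in either direction) and edgeR 0 (0.609%). Without kidney CD4+ replicate 1 the count was 5, with 21.5% of all genes called in either direction, and without replicate 2 it was 3, with 2.76%. Klrc1, Klrk1 and Klrg1 were among them in both cases, each with 1 kidney CD4+ library left.

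The CD4+ and CD8+ organ effects were compared directly as an interaction. It was called for 0 of 7 genes by limma, edgeR and DESeq2, with 0%, 0% and 0.111% of all genes called, and at an unadjusted p below 0.05 there was 1 of 7 by limma, against 3.34% of all genes. That gene was Klra5 (4.24 ± 1.11 SE, limma adjusted p = 0.999). With the Ly49 genes summed, mostly Klra2 in kidney CD4+ cells, the interaction was -0.22 ± 0.85. For Klrg1 the organ difference was -1.77 in CD4+ and -0.75 in CD8+ cells, and for Klrk1 1.74 and 0.83. Neither difference of differences passed (1.02 ± 0.48 and -0.91 ± 0.46 SE, limma adjusted p = 0.999 for both).

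The CD4+ levels were also set against the CD8+ genes that the sort should exclude. In kidney CD4+ replicates 1 and 2, Klrk1 stood at 13.4% and 15.6% of the mean of the kidney CD8+ libraries, Klre1 at 11.7% and 14.7%, and Klrc1 at 8.97% and 4.84%. Cd8a stood at 0.558% and 0.0282% and Cd8b1 at 0.411% and 0.290% of theirs. In spleen CD4+ libraries the 7 receptor genes stood at 3.13% to 65.1% of the spleen CD8+ mean, with Klrg1 highest, against 0.00911% and 0.0213% for Cd8a and 0.666% and 0.489% for Cd8b1. In kidney CD4+ cells Klra5 was at 0, and the other 6 receptor genes were at 2.46% or more, above both CD8 chains.

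**Figure D3:**
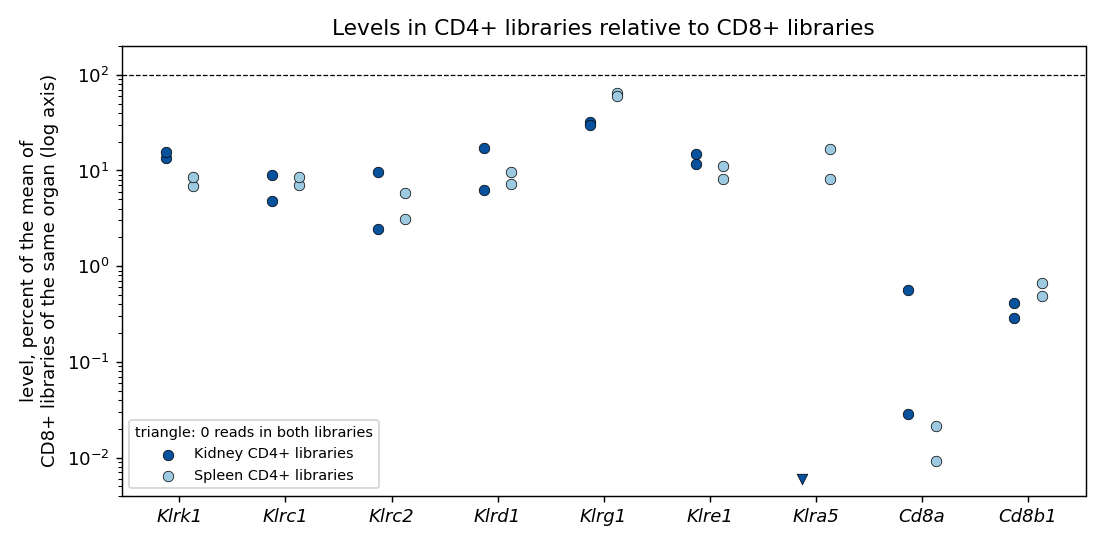
Level in each CD4+ library as a percent of the mean of the 2 CD8+ libraries of the same organ (log axis), for the receptor genes and the CD8 chains Cd8a and Cd8b1; the dashed line marks equal levels. Apart from Klra5 in kidney, drawn as a triangle at the lower edge, all receptor genes lie above both CD8 chains.

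Natural killer cells carry the same receptors. Of 15 listed markers of these cells 13 were in the table, with summed levels of 3258 to 4424 in kidney CD4+, 19060 to 25731 in kidney CD8+, 3728 to 4047 in spleen CD4+ and 24777 to 25373 in spleen CD8+ cells. Gzma and Cd7, which T cells also make, carried most of the sum in every library but the kidney CD4+ ones. Ncr1, which encodes NKp46 and is 1 of these markers, had 0 reads in both spleen CD8+ libraries. It also had 0 reads in kidney CD8+ replicate 2, kidney CD4+ replicate 2 and spleen CD4+ replicate 2. It read 24.6 in kidney CD8+ replicate 1, 113 in kidney CD4+ replicate 1 and 15.5 in spleen CD4+ replicate 1. Klrb1c, the NK1.1 antigen in strains that carry it, was at 57.1 and 12.5 in kidney CD4+, 5.09 and 20.8 in kidney CD8+, 16.1 and 0.863 in spleen CD4+ and 27.6 and 33.4 in spleen CD8+ cells. The part of such cells in the receptor levels of any group was not tested.

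Reads of the NKG2 copies kept a narrow ratio to Klrc1 in CD8+ cells. Klrc2 reads were 4.17% and 4.48% of Klrc1 reads in kidney CD8+ and 3.98% and 3.94% in spleen CD8+ libraries. In CD4+ libraries the values were 4.69% and 2.20% in kidney and 1.76% and 2.73% in spleen, on few reads. Klrc3, an NKG2E chain not among the 7 genes, was at 6.04% and 5.79% in kidney CD8+ and 5.26% and 5.54% in spleen CD8+ libraries. Its level was higher in CD8+ than in CD4+ cells in kidney (log2 fold change 3.69 ± 0.54 SE, limma adjusted p = 0.0494) and in spleen (3.82 ± 0.54, adjusted p = 0.0307). Whether the counts of Klrc2 and Klrc3 were reads of Klrc1 assigned to its copies was not tested. With the 3 copies summed, levels were 6506 and 6434 in kidney CD8+, 2404 and 2491 in spleen CD8+, 582 and 312 in kidney CD4+ and 166 and 205 in spleen CD4+ cells, close to those of Klrc1 alone.

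**Figure D4:**
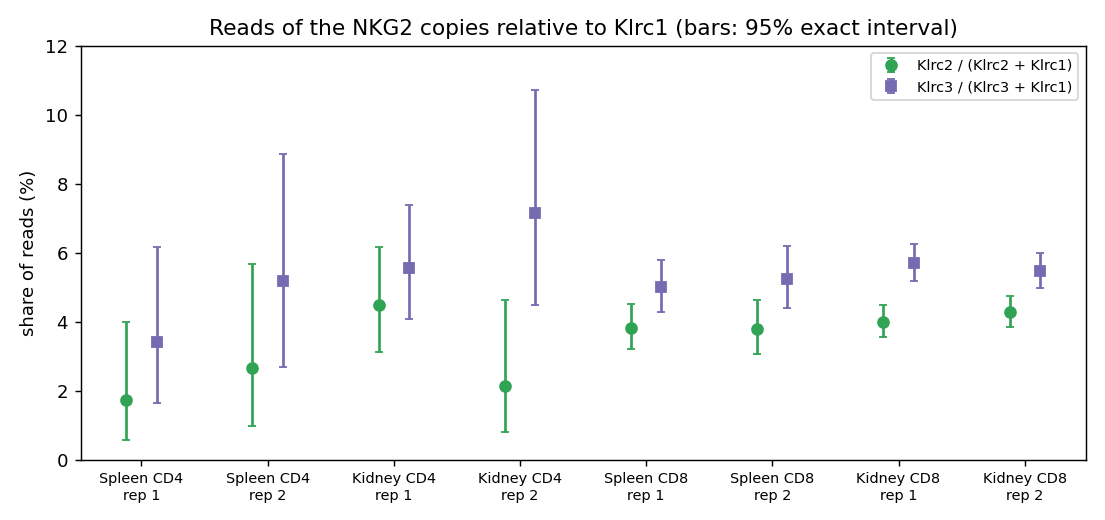
Reads of Klrc2 and of Klrc3 as a share of their sum with Klrc1 (percent) in the 8 libraries, with exact 95% binomial intervals for counting error. The 4 CD8+ libraries sit between 3.79% and 4.29% for Klrc2 and between 5% and 5.69% for Klrc3, and the CD4+ intervals are wide.

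The levels of Klrk1, Klrc1, Klrc2, Klrd1 and Klre1 moved together across the libraries, with Pearson r of 0.909 to 0.995 between any 2 on the log2 scale. This is a description of 8 libraries that fall into 4 groups. Klrc1, Klrc2 and Klrc3 are close copies, and the part of reads split among them in their likeness was not tested. Over all genes tested the pattern most like that of Klrk1 was Klre1 (r = 0.995), then Klrc3 (0.988) and Klrc1 (0.976). For Klrc1 these were Klrc2 (0.994), Klrc3 (0.993) and Lrrk1 (0.989), and for Klrc2 they were Klrc1 (0.994), Lrrk1 (0.991) and Klrc3 (0.988). For Klre1 they were Klrk1 (0.995), Klrc3 (0.992) and Fbxw4 (0.982), and for Klrd1 Adrb1 (0.982), Klre1 (0.975) and Mroh1 (0.975). Klrg1 had an r of 0.27 to 0.75 with the other 6 and was most like Pald1 (0.988), Phf11c (0.980) and Dcaf4 (0.976). Klra5 was most like Gzmb (0.976), the granzyme B gene, Ugcg (0.975) and Phactr3 (0.974).

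The promoters of 4 of the genes that moved together are printed because they share a motif, the letters TGTGGT bound by RUNX factors, given in capitals (ACCACA where it lies on the opposite strand). Each is the 250 bases before an annotated start from RefSeq, build GRCm38.p6, read 5′ to 3′ on the strand of the gene. Klre1 is chr6:129577963-129578212 (plus), Klrk1 chr6:129623865-129624114 (minus), Klrc2 chr6:129660597-129660846 (minus) and Klrc1 chr6:129678974-129679223 (minus).

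Klre1: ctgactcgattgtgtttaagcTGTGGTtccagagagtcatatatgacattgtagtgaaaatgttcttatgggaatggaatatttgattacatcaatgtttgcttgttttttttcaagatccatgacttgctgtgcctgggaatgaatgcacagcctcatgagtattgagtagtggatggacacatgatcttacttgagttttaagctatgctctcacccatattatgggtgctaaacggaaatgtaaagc
Klrk1: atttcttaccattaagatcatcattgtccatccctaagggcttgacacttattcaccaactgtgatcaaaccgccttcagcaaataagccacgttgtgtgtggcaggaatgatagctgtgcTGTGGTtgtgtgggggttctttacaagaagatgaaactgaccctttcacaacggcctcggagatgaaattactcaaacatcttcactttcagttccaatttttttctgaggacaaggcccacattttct
Klrc2: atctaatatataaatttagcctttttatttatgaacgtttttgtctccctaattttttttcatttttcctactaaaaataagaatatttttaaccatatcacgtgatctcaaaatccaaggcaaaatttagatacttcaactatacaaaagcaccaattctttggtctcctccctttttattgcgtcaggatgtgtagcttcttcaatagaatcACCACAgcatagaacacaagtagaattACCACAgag
Klrc1: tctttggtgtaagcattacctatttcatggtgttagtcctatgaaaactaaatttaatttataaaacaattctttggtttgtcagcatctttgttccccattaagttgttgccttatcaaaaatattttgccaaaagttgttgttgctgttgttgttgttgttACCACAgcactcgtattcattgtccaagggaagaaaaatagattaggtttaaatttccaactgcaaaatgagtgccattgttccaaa

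The match began 229 bases before the start in Klre1, 129 in Klrk1, 36 and 9 in Klrc2 and 87 in Klrc1. Klre1 has a second annotated start whose 250 bases held no match, and a second one of Klrc2 had matches 76 and 49 bases before it. On either strand, the motif occurred in 14.0% of 32851 promoters of the same length. That share does not allow for the choice among the RUNX, T-box, AP-1, ETS and GATA letters or among starts of a gene. The promoters were printed for this match, so its sharing among them was set by the choice. Klra5 held no such match and 1 match to the GATA letters AGATAA (9.99% of promoters). None of these 5 genes matched the T-box letters AGGTGTGA (1.12%), the AP-1 letters TGANTCA (6.75%) or the ETS letters CCGGAA (12.03%), and no match overlapped another motif. Over aligned bases, the printed Klrc2 promoter was 98.6% identical to that of Klrc3 (209 bases) and 59.6% to that of Klrc1 (218 bases). A match of letters is a description and shows no binding. Promoters of Klrd1 and Klrg1 were not analysed here.

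Adaptors of these receptors had levels of their own. Hcst, the DAP10 adaptor of NKG2D, read 7250.5 and 5940.4 in kidney CD8+, 4186 and 3320.2 in spleen CD8+, 1822 and 4809.6 in kidney CD4+ and 2322 and 2310.2 in spleen CD4+ cells. Tyrobp, the DAP12 adaptor, read 402 and 227 in kidney CD8+, 69.4 and 88.8 in spleen CD8+, 525 and 964 in kidney CD4+ and 267 and 234 in spleen CD4+ cells. Its highest levels were in kidney CD4+ libraries, where the macrophage and dendritic markers given above were also highest; those cells make Tyrobp too, and their part was not tested. Over all genes tested, 1.21% were called higher and 0.341% lower between organs in CD8+ cells. Of 24 adaptors and kinases tested, 1 was called in that comparison and 0 in each other one. That gene was Fcer1g, the common gamma chain of Fc receptors, at 1125 and 455 in kidney and 61.3 and 66.8 in spleen CD8+ cells (log2 fold change 3.46 ± 0.53 SE, limma adjusted p = 0.0199). Macrophages also make it. Their summed markers were at 2704 to 4213 in kidney and 1545 to 1844 in spleen CD8+ cells, mostly H2-Aa and H2-Ab1. Of the 10 markers tested, C1qb and C1qa were called higher in kidney CD8+ cells and 0 lower. C1qb had 506 and 462 reads in kidney and 49 and 77 in spleen CD8+ libraries. The part of macrophages in the Fcer1g level was not tested.

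Of 7 ligand genes tested, 1 passed, also between organs in CD8+ cells, where 1.21% of all genes were called higher and 0.341% lower. Cdh1, which encodes E-cadherin, a ligand of KLRG1, read 421 and 326 in kidney and 10.8 and 3.82 in spleen CD8+ cells (5.62 ± 0.69 SE, limma adjusted p = 0.00813), and 57.1 and 45.8 in kidney and 11.6 and 6.04 in spleen CD4+ cells. E-cadherin is an epithelial protein. The summed tubule markers were at 4421 and 14530 in kidney CD8+ and 5450 and 13806 in kidney CD4+ replicates 1 and 2. Their part was not tested. H2-T23, the Qa-1 gene, lay between 9345 and 18198 in all 8 libraries and passed in no comparison. Of 13 other receptors of the complex tested, Klrc3 was the 1 called in each comparison of CD8+ with CD4+ cells. Of all genes tested, 0.12% were called higher there in kidney and 0.129% in spleen. Between organs 0 of the 13 were called. Of 12 cytokine receptor genes 0 were called in any comparison.

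Among 20 transcription factors tested, 3 were called between organs in CD8+ cells, against 1.21% of all genes called higher and 0.341% lower. Tcf7, the TCF1 factor of naive and memory cells, read 337 and 475 in kidney and 1764 and 2058 in spleen (log2 fold change -2.25 ± 0.38 SE, limma adjusted p = 0.0284). Lef1, a relative of Tcf7, was lower in kidney as well (-4.02 ± 0.77, adjusted p = 0.0456), and Nfil3, a factor of natural killer cell development, was higher (2.69 ± 0.47, adjusted p = 0.0311). Ikzf2, which encodes Helios, was lower in spleen CD8+ than spleen CD4+ cells (-3.36 ± 0.44, adjusted p = 0.0251). Eomes, a T-box factor of CD8+ and natural killer cells, read 716 and 534 in kidney CD8+, 807 and 636 in spleen CD8+, 252 and 248 in kidney CD4+ and 367 and 335 in spleen CD4+ cells, and passed in no comparison. Tbx21 (T-bet) lay between 39.4 and 212 and Zeb2 between 7.28 and 44.4, and neither passed.

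Of 22 cytotoxic effector genes tested, 2 were called higher in kidney CD8+ than kidney CD4+ cells (0.12% of all genes). In spleen CD8+ against spleen CD4+ cells 1 was called higher (0.129% of all genes). Between organs 1 was called in CD8+ cells (1.21% of all genes higher, 0.341% lower) and 0 in CD4+ cells (0.802% and 0.157%). Gzma, the granzyme A gene, was higher in CD8+ cells in kidney (4.71 ± 0.48 SE, limma adjusted p = 0.0101) and in spleen (4.83 ± 0.48, adjusted p = 0.00645). Gzmb was higher in kidney CD8+ than kidney CD4+ cells (3.25 ± 0.34, adjusted p = 0.0107). The chemokine gene Ccl3 was higher in kidney than in spleen CD8+ cells (2.60 ± 0.50, adjusted p = 0.0453).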

How the data were processed

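RNA of sorted CD44hi T cells was isolated with the Qiagen RNeasy Plus Micro Kit and libraries were made with SMART-Seq v4, per the labels' protocols. Per the submitters' processing notes, the build was mm9 and the tools included STAR 2.5.3 and TopHat2 2.1.0; for the counting tool the sources used here give no name. Values of 8 libraries, all used, came as 1 deposited table of normalised signal. Every value was a whole multiple of 1 step per library, so whole reads could be recovered for 100% of values (tolerance 1e-06). A level is this deposited signal.

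Every comparison is a contrast of 1 linear model with 4 group means, fitted to log2(level + 1) of the 8 libraries by limma 3.58.1 (R 4.3.3; empirical Bayes with intensity trend, 2-sided). Genes entered when 2 libraries or more reached a level of 10, which left 10845. The threshold was a Benjamini-Hochberg adjusted p of 0.05 over these genes. Fold changes carry the standard error (SE) and are on that scale, which understates changes of low genes; ratios are of mean levels. Intervals are 95%. A bound against 0 reads uses 3 reads over the group. Alternatives were other pseudocounts, filters and scalings, library weights, subsets, a replicate block, copies summed (Klrc1 to Klrc3, and the Ly49 genes), and edgeR 4.0.16 (quasi-likelihood) and DESeq2 1.42.0 on recovered reads. The test was checked on simulated reads with 1 spread common to the 4 groups, which does not cover the unlike kidney CD4+ pair. Positions and transcripts came from GENCODE vM1 (mm9), and promoters from a RefSeq table matched by symbol (5 of the 7 genes matched). Coding sequences and promoters were aligned pairwise for identity.

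The members, lists and alternatives were chosen with earlier results of these data known. Named were the 7 genes, every called gene of the receptor, adaptor, ligand, factor and effector lists (up to 4 per list and comparison), the fixed genes Hcst, Tyrobp, H2-T23, Cdh1, Tbx21, Eomes, Zeb2, Tcf7, Klrb1c and Ncr1, and the 3 genes most like each member by Pearson r.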

Additional observations from a re-analysis of the deposited data

How the results depend on the processing

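In the 4 comparisons of groups, the 7 genes kept their direction under every alternative run, with 1 exception. For Klra5 between organs in CD4+ cells the value became 1.45 (log2) with the Ly49 genes summed, mostly Klra2 in kidney. The number called between organs in CD4+ cells was 0 as reported and 4 with DESeq2 (3.25% of all genes called in either direction). It rose in some fits with 1 library left out. Between organs in CD8+ cells it was 0 as reported and 1 with library weights (5.32% of all genes called in either direction). It was 1 with only the compared libraries (1.65%), 1 with DESeq2 (4.48%) and 3 without the kidney CD4+ group (4.4% called higher, 2.47% lower). Here too it rose in some fits with 1 library left out. Between CD8+ and CD4+ cells of kidney it was 3 as reported (0.12% of all genes called higher) and 6 with a pseudocount of 10 (0.231%). It was 5 when scaled to the total (0.148%), 1 with library weights (0.0645%), 0 with only the compared libraries (0%) and 7 with DESeq2 (0.811%). Leaving out 1 library lowered or raised it, depending on the library. In spleen it was 4 as reported (0.129% of all genes called higher) and 5 without the kidney CD4+ group (1.2%). Leaving out 1 library lowered or raised it there too. The interaction was called for 0 of the 7 genes under every alternative.

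Deviations from group means of same-numbered libraries correlated at -0.155 to 0.0559 between groups. These values show no pairing by replicate number, but with 2 libraries per group they cannot exclude it. With a replicate block the spleen count fell to 2 (Klrc1 and Klrk1), with 0.0645% of all genes called higher. The other counts were 3 in kidney, with 10 of 10845 genes called higher, and 0 elsewhere.

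Interactions near 0 changed sign: Klrc2 from 0.0076 to -0.0848 (pseudocount 0.5), -0.050 (median-of-ratios), -0.053 (TMM), -0.47 (edgeR) and -0.49 (DESeq2). With 1 library left out it ranged from -0.90 to 0.92 for Klrc2, -0.21 to 0.68 for Klrc1 and -1.04 to 0.43 for Klrd1, both ends from leaving out 1 of the kidney CD4+ libraries. For Klra5 it became -0.22 with the Ly49 genes summed. In kidney CD4+ libraries that sum held 166 and 30 reads of Klra2 and 0 of Klra5. The cause of the changes in Klrc1, Klrc2 and Klrd1 was not tested. Over all alternatives of single members, 657 values kept direction and side of the threshold, 58 passed it anew, 49 lost the call and 13 changed sign. For the other named genes 172 kept the call and 99 lost it. Low reads limit Klrc2 and Klra5 in CD4+ cells.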
